A study of Mus musculus with 6 samples.

Results

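Collagens are matrix proteins built from intertwined chains, each chain the product of its own gene. The genes described here are the rows of the deposited count table whose symbol has the form Col, a type number, a and a chain number. The rule took 44 genes of 23420 in the table, and the rule itself uses no measured value, although earlier results of these data were known when it was chosen. By assembly they were 11 fibrillar genes, 6 basement membrane genes of type IV and 9 genes of the fibril-associated collagens with interrupted helices (FACIT). The others were 6 beaded filament genes of type VI, 2 multiplexins, 4 transmembrane collagens, 3 short-chain network genes and 3 of other types.

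Polyadenylated RNA came from kidneys of Six2-GFP transgenic mouse embryos at embryonic day 18.5, whose mother was wild type and whose father was heterozygous for the transgene. Transgenic kidneys, kept apart from those without the transgene, were dissociated with trypsin. Their cells were sorted on GFP into Six2-high (GFP-positive) and Six2-low (GFP-negative) cells, 3 libraries each, with the gate set on kidneys lacking the transgene. Each fraction is thus a bulk population, and the sort reads GFP rather than Six2 protein. The titles join each Six2-high library to a Six2-low library of the same number tag and RNA kit. Replicate 1 has the tag 14_6 and the TRI kit. Replicate 2 has 17_7 and the Norgen kit, and replicate 3 has 17_7 and the TRI kit. The tags are read here as dates, which the titles do not state, and libraries of the same tag are called same-date.

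In the fetal kidney, Six2 marks the cap mesenchyme, the progenitors of the nephron. These cells condense around the tips of the ureteric bud and are surrounded by stroma. Fibrillar collagens of types I, III and V form the fibres of loose connective tissue, while types II, IX and XI make up the fibrils of cartilage. Type IV chains assemble into the sheet-like network of basement membranes, and that network changes its chain make-up as the glomerulus matures. Type VI forms fine filaments at the surface of mesenchymal cells.

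Total counts per library ran from 23535399 to 29791421. Rn45s, the ribosomal RNA precursor, took 9.59% of counts in Six2-high replicate 3 (exact Clopper-Pearson 95% interval 9.58 to 9.60, counting error only). In the other libraries its share was at most 0.68% (interval 0.673 to 0.679, in Six2-high replicate 1). Six2 itself was at 849, 1479 and 1344 CPM (counts scaled to a common library size) in Six2-high and at 23.4, 11.2 and 11.1 CPM in Six2-low. The 8 cap mesenchyme markers examined were higher in Six2-high. Markers of most other lineages were largely lower, among them 8 of 8 endothelial, 6 of 6 tubule and 7 of 8 stromal genes. Of 6 cartilage markers only 2 could be tested, 1 higher and 1 lower. These are mixtures of cells, so fewer cells of a type and less RNA per cell cannot be told apart.

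The collagen profile of the Six2-high fraction differed from that of the Six2-low fraction in both directions. Summed over the 44 genes, collagen counts were at 3613, 3931 and 3515 CPM in Six2-high and at 9175, 10506 and 9563 CPM in Six2-low. Of 41 genes with enough counts to test, 28 were lower and 6 were higher in Six2-high. Col2a1, Col9a1, Col11a2, Col26a1, Col13a1 and Col4a6 were the higher genes. Over all 15347 genes tested, 28.7% were lower and 21.4% were higher, against 68.3% and 14.6% of the collagen genes. A gene was called at an adjusted p under 0.05 in edgeR's quasi-likelihood test. By that rule 34 collagen genes were called, where 50.1% of all genes were, and 7 collagen genes were not. Changes of more than 3 log2 units were called downward in 19 collagen genes and upward in 3, where 10.2% and 0.984% of all genes made such calls. The median log2 fold change, Six2-high minus Six2-low, was -2.23 over the collagen genes and 0.05 over all genes tested. The fractions did not overlap in 34 of the 41 genes, or 82.9%, where 60.0% of all genes did not. Against a 2-fold change, 6 collagen genes were still higher and 24 lower, where 3.56% and 17.3% of all genes passed.

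**Figure D1:**
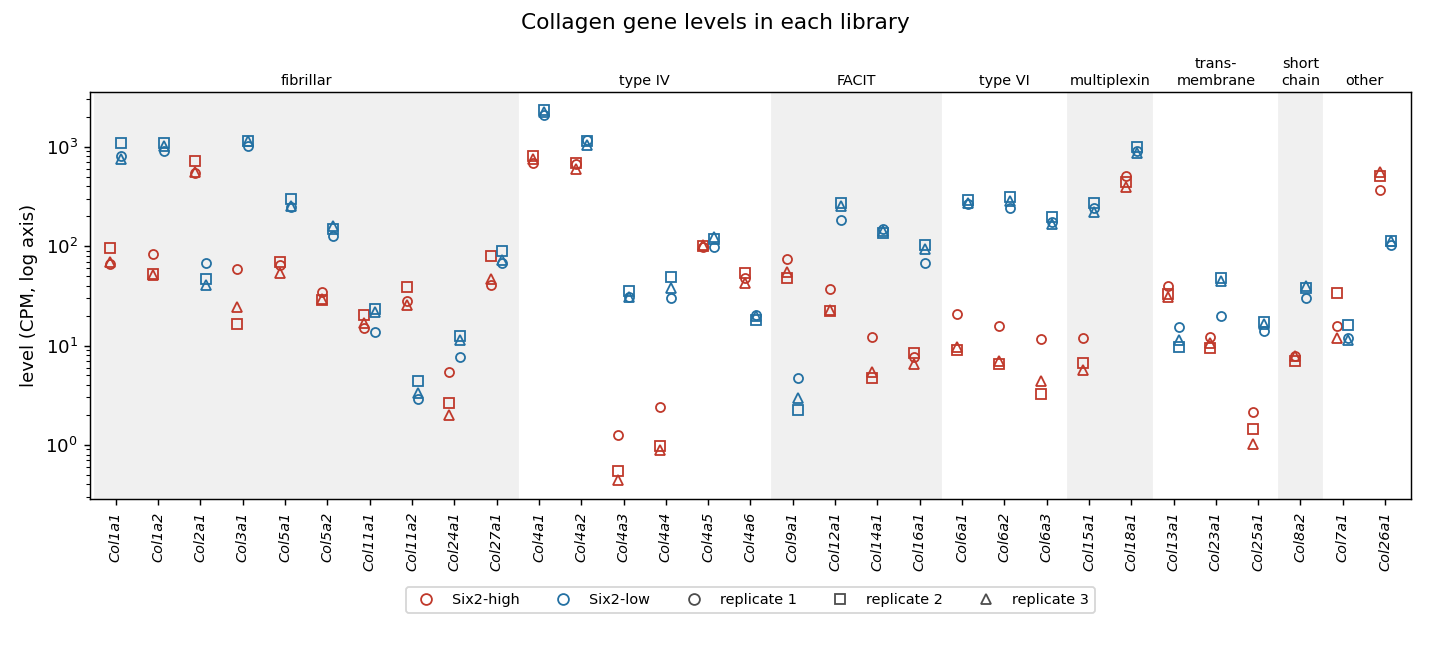
Levels, in CPM on a log axis, of 31 collagen genes grouped by type, namely those averaging 10 CPM or more in a fraction. Each symbol is 1 library, red for Six2-high and blue for Six2-low, with a shape for each replicate. Col2a1, Col11a2, Col9a1, Col13a1, Col4a6 and Col26a1 have every red symbol above the blue symbols.

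To show where the higher genes begin, the RefSeq promoter windows on GRCm38.p6 (the mm10 assembly) of those that have an entry are printed here. Each runs from 250 bases before to 50 bases after the annotated start. Col9a1 has 2 windows because it has 2 annotated starts. The windows of Col1a2 and Col3a1, both lower in Six2-high, and of Col4a2 stand beside them for comparison. Capitals mark exact matches on either strand to 4 short motifs. The first, TATAAA, is a core promoter element. Upstream elements of many promoters have the letters CCAAT, and Sp1-type factors bind GGGCGG. Factors of the SOX family can bind the core ACAAT, which differs from the second motif only in its first letter, so no stretch matches both at the same place. The RefSeq starts of Col11a2 and Col1a2 are not the outermost GENCODE starts of those genes. The Col11a2 window lies wholly before the GENCODE gene, which starts at 34039437. The Col1a2 window lies inside the GENCODE gene, which starts at 4504814.
Col9a1 upstream start, chr1:24177360-24177659, plus strand: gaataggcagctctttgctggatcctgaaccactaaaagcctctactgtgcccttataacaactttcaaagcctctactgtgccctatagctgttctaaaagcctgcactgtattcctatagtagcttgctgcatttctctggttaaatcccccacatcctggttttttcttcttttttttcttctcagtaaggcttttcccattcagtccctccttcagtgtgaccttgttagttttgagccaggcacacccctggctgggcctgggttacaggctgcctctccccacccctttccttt
Col9a1 internal start, chr1:24194953-24195252, plus strand: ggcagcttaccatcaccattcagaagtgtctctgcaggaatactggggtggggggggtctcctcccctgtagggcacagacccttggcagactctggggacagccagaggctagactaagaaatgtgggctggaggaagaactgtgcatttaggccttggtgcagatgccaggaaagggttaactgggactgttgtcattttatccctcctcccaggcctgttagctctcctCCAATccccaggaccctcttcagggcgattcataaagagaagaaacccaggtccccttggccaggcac
Col11a2, chr17:34038888-34039187, plus strand: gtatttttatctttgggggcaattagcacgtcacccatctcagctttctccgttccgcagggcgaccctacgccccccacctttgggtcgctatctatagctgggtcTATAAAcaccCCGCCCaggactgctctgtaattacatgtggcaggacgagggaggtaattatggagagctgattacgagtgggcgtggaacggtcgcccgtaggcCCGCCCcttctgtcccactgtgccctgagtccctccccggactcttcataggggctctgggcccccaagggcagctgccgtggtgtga
Col13a1, chr10:61979059-61979358, minus strand: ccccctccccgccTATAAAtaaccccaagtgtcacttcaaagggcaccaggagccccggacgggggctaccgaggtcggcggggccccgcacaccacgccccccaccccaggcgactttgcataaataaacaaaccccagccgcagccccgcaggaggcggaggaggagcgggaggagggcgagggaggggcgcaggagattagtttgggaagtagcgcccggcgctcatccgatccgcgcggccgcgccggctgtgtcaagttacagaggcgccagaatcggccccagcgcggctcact
Col4a6, chrX:141474027-141474326, minus strand: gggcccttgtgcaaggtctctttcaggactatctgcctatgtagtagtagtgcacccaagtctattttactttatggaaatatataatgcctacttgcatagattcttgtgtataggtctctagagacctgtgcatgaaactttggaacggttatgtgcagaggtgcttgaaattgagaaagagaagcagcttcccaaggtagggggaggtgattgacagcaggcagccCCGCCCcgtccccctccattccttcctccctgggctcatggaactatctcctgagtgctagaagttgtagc
Col4a2, chr8:11312555-11312854, plus strand: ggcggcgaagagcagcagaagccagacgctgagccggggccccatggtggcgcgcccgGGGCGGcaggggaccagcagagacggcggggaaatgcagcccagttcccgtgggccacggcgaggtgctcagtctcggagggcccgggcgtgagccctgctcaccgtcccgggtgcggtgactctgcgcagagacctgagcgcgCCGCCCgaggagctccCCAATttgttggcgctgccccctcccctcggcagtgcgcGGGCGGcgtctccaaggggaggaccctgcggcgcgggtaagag
Col1a2, chr6:4505368-4505667, plus strand: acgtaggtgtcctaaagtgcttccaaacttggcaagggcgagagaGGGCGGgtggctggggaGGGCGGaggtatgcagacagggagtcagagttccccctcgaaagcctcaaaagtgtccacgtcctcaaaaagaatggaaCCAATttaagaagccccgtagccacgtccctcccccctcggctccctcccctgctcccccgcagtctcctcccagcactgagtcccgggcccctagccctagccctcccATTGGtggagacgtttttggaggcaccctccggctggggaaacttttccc
Col3a1, chr1:45311288-45311587, plus strand: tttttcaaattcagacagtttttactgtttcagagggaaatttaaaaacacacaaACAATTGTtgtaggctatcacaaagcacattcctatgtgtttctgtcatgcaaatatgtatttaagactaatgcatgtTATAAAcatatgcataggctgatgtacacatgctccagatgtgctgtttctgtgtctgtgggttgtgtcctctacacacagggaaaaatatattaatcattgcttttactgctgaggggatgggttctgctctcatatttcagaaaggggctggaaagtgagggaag

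RefSeq windows were found for 35 of the 44 genes, 38 windows in all. TATAAA occurred in 13.2% of the collagen windows and in 13.6% of the 32851 windows of the table. CCAAT was in 34.2% and 37.4% in the same order, GGGCGG in 60.5% and 35.7%, and ACAAT in 5.26% and 31.0%. The 2 collagen windows with ACAAT were those of Col3a1 and Col28a1. Their guanine and cytosine shares, 37.7% and 41.7%, were the lowest of the 38 windows. Both genes had lower counts in Six2-high, where most tested collagen genes were lower. Of the higher genes, Col2a1 and Col26a1 had no window and were not searched. The motif shares were not adjusted for guanine and cytosine content. Guanine and cytosine made up 47.3% of the upstream Col9a1 window and 55.7% of the internal window. Among the other printed windows this share ran from 37.7% in Col3a1 to 73.7% in Col4a2, with a median of 52.7% over all windows. The counts are per gene, so transcripts of the 2 Col9a1 starts cannot be told apart. A match in these windows is a description of letters only.

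Among the fibrillar genes, those of connective tissue fibres fell and a pair of cartilage-type genes rose, with 7 of 11 lower and 2 higher. Col2a1, which encodes the only chain of type II collagen, was at 546, 713 and 553 CPM in Six2-high and at 67.5, 46.6 and 41.01 CPM in Six2-low. Every Six2-high library was above every Six2-low library. Its log2 fold change was 3.55 (SE 0.22, adjusted p = 4.3e-06), or 11.7-fold. In mm10 it is annotated on the minus strand of chromosome 15 (97975602 to 98004695). Col11a2, a chain of type XI collagen that sits inside type II fibrils, was at 27.9, 38.5 and 25.6 CPM against 2.92, 4.37 and 3.32 CPM. That is an 8.67-fold rise (log2 3.12, SE 0.23, adjusted p = 1.0e-05), again without overlap (chromosome 17, 34039437 to 34066685). Col11a1, the partner chain of type XI, was at 15.2, 20.5 and 16.7 CPM against 13.5, 23.0 and 21.7 CPM. These ranges overlapped and the gene was not called (log2 -0.16, SE 0.22, adjusted p = 0.58).

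Type I and type III genes carried the largest fibrillar levels of Six2-low. Col1a1, the major chain of type I collagen, was at 65.9, 96.9 and 69.7 CPM in Six2-high and at 800.4, 1080 and 761 CPM in Six2-low. Col1a2, the second type I chain, was at 84.2, 52.9 and 51.9 CPM against 907, 1091 and 1008 CPM. Both were lower without overlap, with log2 fold changes of -3.51 (SE 0.21, adjusted p = 3.7e-06) and -3.99 (SE 0.22, adjusted p = 2.6e-06). Col1a1 lies on chromosome 11 (94936224 to 94953042) and Col1a2 on chromosome 6 (4504814 to 4541544). Col3a1, which forms thin fibres with type I, was at 59.6, 16.5 and 24.3 CPM against 1028, 1131 and 1156 CPM. On chromosome 1 (45311538 to 45349706), it had the largest fold of the fibrillar genes, 32.9-fold lower in Six2-high (log2 -5.04, SE 0.47, adjusted p = 3.7e-05), and replicate 1 was the highest Six2-high library. Without that library the log2 fold change was -5.78, and without both libraries of that preparation -5.85.

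Type V, which nucleates type I fibrils, was lower in its 3 chains. Col5a1 was at 64.1, 69.4 and 54.3 CPM in Six2-high and at 248, 301 and 251 CPM in Six2-low. Col5a2 was at 34.3, 28.9 and 29.1 CPM against 126, 147 and 160 CPM. The fractions did not overlap in either gene, with log2 fold changes of -2.09 (SE 0.14) and -2.23 (SE 0.13). Col5a3 was scarce, under 1 CPM in every Six2-high library and at most 8.55 CPM in Six2-low (log2 -4.39, SE 0.29). Col24a1, a minor fibrillar gene, was at 5.42, 2.66 and 2.01 CPM against 7.62, 12.5 and 11.5 CPM. It was called lower (log2 -1.63, SE 0.37, adjusted p = 0.0066), but not without both libraries of preparation 2 (adjusted p = 0.082) or 3 (adjusted p = 0.077), nor with same-date libraries summed (adjusted p = 0.080). Without both libraries of preparation 1 its log2 fold change was -2.39. Col27a1, another minor fibrillar gene, was at 40.8, 78.7 and 46.9 CPM against 67.2, 89.6 and 72.1 CPM and was not called (log2 -0.46, SE 0.24, adjusted p = 0.14). Its ranges overlapped, though it was lower within each preparation, and with the preparation as a replicate block adjusted p was 0.0088. Without Six2-high replicate 2, the highest of that fraction, adjusted p was 0.0038 and the log2 fold change -0.79, and without both libraries of preparation 2 adjusted p was 0.011. With same-date libraries summed it was 0.17, and in the other leave-outs of a library or preparation it was from 0.12 to 0.42.

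Markers of stroma, the main source of connective tissue fibres in the kidney, moved with the fall of types I, III and V. Their summed level was 171 to 242 CPM in Six2-high and 766 to 879 CPM in Six2-low. Of 8 stromal markers, 7 were lower and Foxd1, which marks stromal progenitors, was higher (log2 1.33, SE 0.48, adjusted p = 0.046), at 49.3, 120 and 151 CPM against 18.7, 51.5 and 57.3 CPM. The Foxd1 call was lost in DESeq2 (adjusted p = 0.085) and without Six2-high replicate 2 (0.084) or 3 (0.17) or Six2-low replicate 1 (0.10) or 2 (0.071), and was 2.5e-05 with the replicate block. Smooth muscle and pericyte markers summed to 49.99 to 98.5 CPM in Six2-high and to 469 to 478 CPM in Six2-low, with 6 of 6 tested lower and Ren1 at 0 in every library. The part of these cells in the collagen differences was not tested. Each of the 7 lower stromal genes was also free of overlap, as were Col1a1, Col1a2, Col3a1, Col5a1 and Col5a2. This follows largely from their calls, and 60.0% of all genes tested did not overlap. The cartilage markers were low and went both ways. Acan did not pass 0.39 CPM in any library and Comp had no counts in Six2-high. The 6 cartilage markers summed to between 4.48 and 5.02 CPM in Six2-high and to between 12.8 and 15.5 CPM in Six2-low. Matn1, a cartilage matrix protein, was called higher, at 3.06, 3.88 and 3.58 CPM against 0.15, 0.039 and 0.032 CPM. Hapln1, a link protein, accounted for most of the Six2-low sum, at 11.6 to 14.5 CPM.

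**Figure D2:**
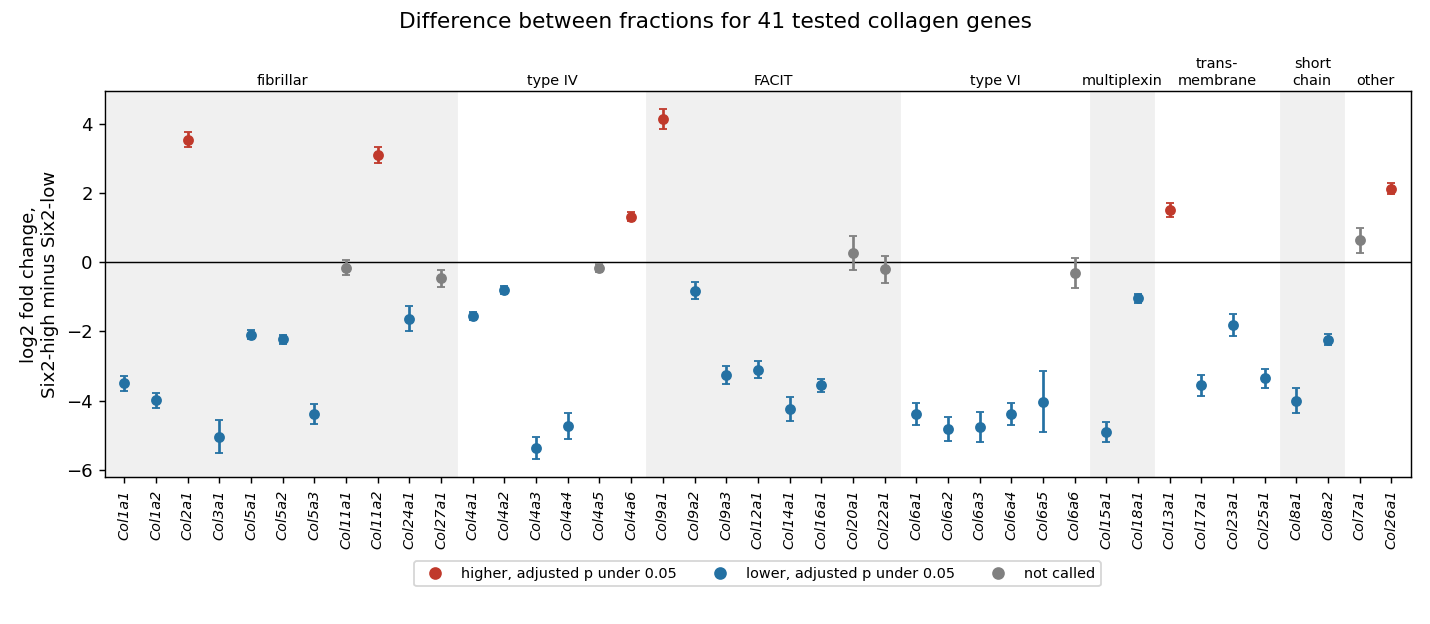
Log2 fold change, Six2-high minus Six2-low, of the 41 tested collagen genes by type, with the standard error as bars. Red points are called higher, blue points lower and grey points not called. The 6 red points are spread over 5 of the 8 types.

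Type IV genes differed between chain pairs and, in the X-linked pair, within it, with 4 lower, 1 higher and 1 not called among 6. Col4a1 (chromosome 8, 11198423 to 11312826) and Col4a2 (chromosome 8, 11312805 to 11449287) encode the chains found in nearly all basement membranes, those of vessels included. Col4a1 was at 693, 804 and 756 CPM in Six2-high and at 2083, 2342 and 2217 CPM in Six2-low. Col4a2 was at 666, 686 and 597 CPM against 1167, 1147 and 1054 CPM. Both were lower without overlap, with log2 fold changes of -1.56 (SE 0.12, adjusted p = 1.3e-05) and -0.79 (SE 0.11, adjusted p = 0.00051). The call for Col4a2 did not pass against a 2-fold change. Endothelial markers moved the same way, summing to 4.85 to 7.06 CPM in Six2-high and 719 to 1177 CPM in Six2-low, and their part in these differences was not tested.

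Col4a3 (chromosome 1, 82586921 to 82722059) and Col4a4 (chromosome 1, 82448423 to 82586849), chains of the mature glomerular basement membrane, fell most among type IV genes. Col4a3 was at 1.25, 0.55 and 0.44 CPM in Six2-high and at 30.5, 35.4 and 31.0 CPM in Six2-low (log2 -5.37, SE 0.33, adjusted p = 3.9e-06). Col4a4 was at 2.40, 0.97 and 0.88 CPM against 30.3, 48.5 and 38.2 CPM (log2 -4.74, SE 0.38, adjusted p = 1.6e-05). Six2-high replicate 1 was the highest of its fraction for both, and without it the log2 fold changes were -6.03 and -5.41. Without both libraries of preparation 1 they were -6.08 and -5.58. Podocytes make these chains in the glomerulus, and their markers summed to 52.1 to 79.2 CPM in Six2-high and 781 to 906 CPM in Six2-low. Of 7 podocyte markers 6 were lower. Their part in the fall of Col4a3 and Col4a4 was not tested.

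The X-linked pair differed from the other pairs. Col4a5, which joins Col4a3 and Col4a4 in the glomerulus and Col4a6 elsewhere, was at 98.1, 100.8 and 102 CPM in Six2-high and at 97.0, 117 and 123 CPM in Six2-low. These ranges overlapped and the gene was not called (log2 -0.16, SE 0.12, adjusted p = 0.27). Col4a6, the chain found in Bowman's capsule and other epithelial and smooth muscle basement membranes, was at 48.4, 53.1 and 43.1 CPM against 20.1, 18.1 and 19.7 CPM. It was 2.50-fold higher without overlap (log2 1.32, SE 0.13, adjusted p = 4.5e-05; chromosome X, 141165403 to 141474076). Each of these pairs lies head to head on its chromosome. By the GENCODE M21 annotation, Col4a6 and Col4a5 start 1309 bases apart, Col4a4 and Col4a3 start 72 bases apart, and the starts of Col4a1 and Col4a2 overlap by 22 bases. The printed Col4a2 window therefore also holds the annotated start of Col4a1, at 11312826.

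Ratios of counts within a library compare chains of the same or neighbouring assemblies free of scaling between libraries. They are counts, not corrected for gene length, so only their change between fractions is read. Col4a1 over Col4a2 was 1.04, 1.17 and 1.27 in Six2-high and 1.79, 2.04 and 2.102 in Six2-low. Col4a6 over Col4a5 was 0.49, 0.53 and 0.42 against 0.21, 0.15 and 0.16. Neither ratio overlapped between the fractions. Col11a1 over Col11a2 was 0.54, 0.53 and 0.65 in Six2-high and 4.63, 5.28 and 6.54 in Six2-low. Col2a1 over Col1a1, which sets the cartilage fibril gene against the connective tissue gene, was 8.28, 7.36 and 7.93 against 0.084, 0.043 and 0.054. By contrast Col1a1 over Col1a2 ran from 0.78 to 1.83 in Six2-high and from 0.75 to 0.99 in Six2-low, and Col5a1 over Col5a2 from 1.87 to 2.40 and from 1.57 to 2.04. The fractions overlapped in these 2 pairs and not in the other 8 of 10. No such share was counted for pairs of other genes, and of all single genes tested 60.0% did not overlap. Col2a1 and Col1a1 were called in opposite directions, as were Col9a1 and Col9a2, so the separation of those ratios follows largely from the calls. Col11a2 and Col4a6 were called while their partners Col11a1 and Col4a5 were not, so the same limit holds for those ratios. With 3 libraries against 3, an exact permutation test cannot go below a two-sided p of 0.10, so no test is given for ratios.

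**Figure D3:**
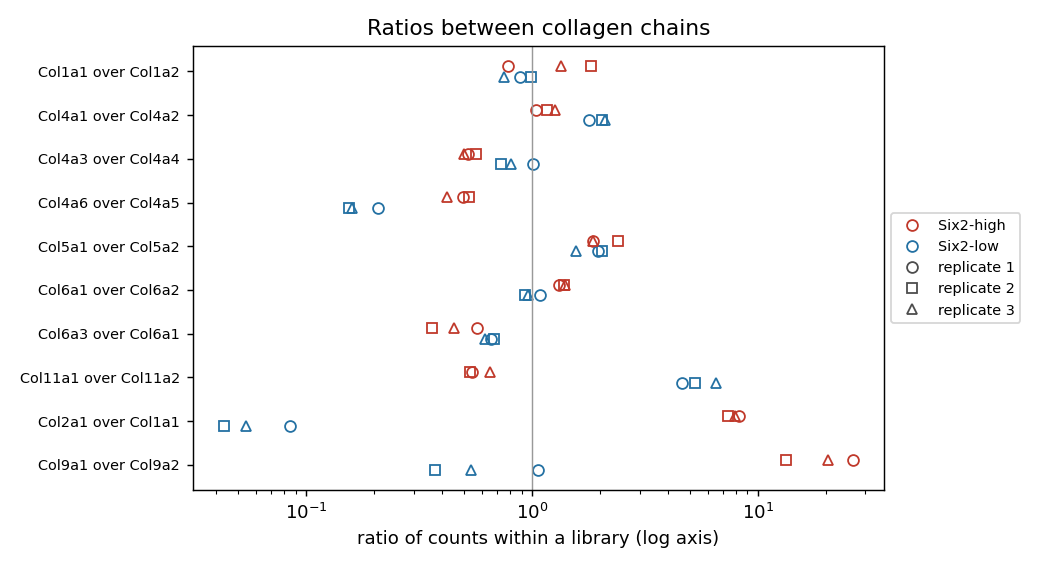
Ratio of the counts of 2 collagen genes within each library, on a log axis, for 10 pairs. Symbols are libraries, red for Six2-high and blue for Six2-low. Col11a1 over Col11a2 and Col2a1 over Col1a1 are far apart between the fractions, while Col1a1 over Col1a2 overlaps.

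FACIT genes, whose products decorate the surface of fibrils, were lower in 5 and higher in 1 of 8 tested. Col9a1, a chain of the type IX collagen that coats type II fibrils, was the exception upward. It was at 74.4, 48.3 and 54.4 CPM in Six2-high and at 4.74, 2.26 and 2.97 CPM in Six2-low. Every Six2-high library was above every Six2-low library, and the 17.7-fold difference (log2 4.15, SE 0.29, adjusted p = 8.4e-06) was the largest rise of the collagen genes tested (chromosome 1, 24177610 to 24252684). The other type IX chains did not follow it. Col9a2 was between 2.65 and 3.63 CPM in Six2-high and between 4.44 and 6.08 CPM in Six2-low (log2 -0.82, SE 0.23, adjusted p = 0.019). That call was lost without Six2-high replicate 3 (adjusted p = 0.063), Six2-low replicate 2 (0.083) or Six2-low replicate 3 (0.069). Without both libraries of preparation 2 its adjusted p was 0.067, without those of preparation 3 it was 0.19, and with same-date libraries summed it was 0.097. Col9a3 was between 0.76 and 1.22 CPM against 8.38 and 11.3 CPM (log2 -3.26, SE 0.26). So Col9a1 over Col9a2 was 26.4, 13.3 and 20.5 in Six2-high and 1.07, 0.37 and 0.54 in Six2-low.

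The FACIT genes Col12a1, Col14a1 and Col16a1 fell, as did the fibrillar genes of types I, III and V. Col12a1, found in dense connective tissue, was at 36.6, 22.2 and 23.0 CPM in Six2-high and at 182, 269 and 256 CPM in Six2-low. Col14a1, a relative of Col12a1, was at 12.2, 4.77 and 5.35 CPM against 149, 137 and 142 CPM. Col16a1, also fibril-associated, was at 7.72, 8.35 and 6.48 CPM against 68.3, 103.8 and 94.0 CPM. None of the 3 overlapped between fractions, and their log2 fold changes were -3.11 (SE 0.24), -4.24 (SE 0.34) and -3.56 (SE 0.19). Without Six2-high replicate 1, the highest of its fraction for Col14a1, that gene was at -4.83. Col20a1 and Col22a1 were low and not called, with adjusted p of 0.66 and 0.69. Col19a1 had at most 6 counts in any library and was not tested.

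Type VI genes were lower in 5 of 6, the widest fall of any collagen type with more than 2 genes tested, with a median log2 fold change of -4.39. Col6a1 was at 20.5, 8.98 and 9.72 CPM in Six2-high and at 264, 289 and 272 CPM in Six2-low. Col6a2 was at 15.6, 6.50 and 6.92 CPM against 244, 309 and 283 CPM. Col6a3, the long chain of the common type VI assembly, was at 11.8, 3.25 and 4.37 CPM against 174, 197 and 168 CPM. Every Six2-high library was far below every Six2-low library in each of these chains. Their log2 fold changes were -4.38 (SE 0.32), -4.83 (SE 0.35) and -4.77 (SE 0.44), with adjusted p of 9.4e-06, 9.2e-06 and 3.5e-05. Six2-high replicate 1 stood above the other Six2-high libraries in each. Without it Col6a3 was at -5.58, and without both libraries of its preparation Col6a2 was at -5.50 and Col6a3 at -5.62. That library also had the lowest Six2 level of its fraction, the highest sum of smooth muscle and pericyte markers, 98.5 CPM against 59.4 and 49.99 CPM, and the lowest sum of stromal markers, 171 against 205 and 242 CPM. Of the 8 stromal markers, Meis1, Pdgfra, Pdgfrb, Postn and Tcf21 were highest in that library, Foxd1 and Lum were lowest there and Dcn was between the others. Their part in the Six2-high levels of type VI was not tested.

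The alternative long chains of type VI were scarce. Col6a4 was lower, at most 0.63 CPM in Six2-high and at least 7.77 CPM in Six2-low (log2 -4.39, SE 0.31). Col6a5 was lower as well (log2 -4.03, SE 0.87, adjusted p = 0.0050), from 4.14, 1.014 and 1.06 CPM in Six2-low to at most 0.21 CPM. Its size depended on replicate 1, with -3.08 without that Six2-low library and -4.82 without that Six2-high library. Col6a6 overlapped between the fractions and was not called (log2 -0.30, SE 0.43, adjusted p = 0.59).

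Multiplexins, basement membrane proteoglycans whose ends are cleaved off as endostatin-like fragments, were lower in 2 of 2. Col15a1 was at 11.9, 6.62 and 5.70 CPM in Six2-high and at 243, 274 and 221 CPM in Six2-low, 30.2-fold lower (log2 -4.92, SE 0.28, adjusted p = 2.9e-06). Col18a1, the source of endostatin, was at 514, 440 and 395 CPM against 906, 998 and 869 CPM. It was 2.06-fold lower without overlap (log2 -1.04, SE 0.13, adjusted p = 0.00025), which did not pass against a 2-fold change, and remained among the 5 highest collagens of Six2-high per length of gene. Col18a1 also has more than a single start in RefSeq, and counts per gene do not separate its forms.

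Transmembrane collagens, which span the cell membrane with the collagen part outside, were lower in 3 and higher in 1 of 4. Col13a1, of cell adhesion sites, was at 40.2, 33.1 and 30.5 CPM in Six2-high and at 15.5, 9.55 and 11.3 CPM in Six2-low. The fractions did not overlap (2.86-fold, log2 1.52, SE 0.20, adjusted p = 0.00033; chromosome 10, 61838236 to 61979108). Col23a1 was at 12.1, 9.36 and 10.6 CPM against 20.0, 48.2 and 44.7 CPM (log2 -1.82, SE 0.31, adjusted p = 0.0014). Col25a1, which is known in neurons and at nerve-muscle contacts, was at 2.16, 1.43 and 1.03 CPM against 13.95, 17.4 and 16.6 CPM (log2 -3.35, SE 0.27, adjusted p = 1.9e-05). For Col23a1 and Col25a1 every Six2-high library was below every Six2-low library. Col17a1, of epithelial hemidesmosomes, was at most 0.34 CPM in Six2-high and at least 3.03 CPM in Six2-low (log2 -3.56, SE 0.32).

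Col26a1, first described in testis and ovary, was at 365, 514 and 557 CPM in Six2-high and at 103, 112 and 113 CPM in Six2-low. The fractions did not overlap (4.39-fold, log2 2.13, SE 0.17, adjusted p = 1.5e-05; chromosome 5, 136741759 to 136883209). Col7a1, of the anchoring fibrils of skin, was at 15.6, 33.6 and 11.9 CPM against 11.8, 16.1 and 11.4 CPM. It was not called (log2 0.64, SE 0.36, adjusted p = 0.17), but was higher in each preparation and had an adjusted p of 0.0498 with the preparation as a replicate block. Among short-chain genes, Col8a2 of endothelial and corneal membranes was at 7.93, 7.001 and 7.86 CPM against 30.0, 37.6 and 39.6 CPM (log2 -2.23, SE 0.16). Col8a1, its partner chain, was also lower, from at least 3.18 CPM to at most 0.31 CPM (log2 -4.00, SE 0.36). Col10a1, of growth plate cartilage, had at most 8 counts in any library and was not tested. Col28a1, known from Schwann cell basement membranes, had at most 2 counts in a Six2-high library and 22, 6 and 6 in Six2-low, and was not tested either. It passed where low genes were kept, with adjusted p = 0.018 without the filter and 0.021 in DESeq2.

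Compared per kilobase of annotated exon, type IV led both fractions and the order below it differed. In Six2-high the levels were 101 ± 7.42 CPM per kilobase (SD, n = 3) for Col4a1 and 98.1 ± 7.11 for Col4a2, which did not differ beyond their spread. Col2a1 (65.3 ± 10.3), Col18a1 (64.0 ± 8.57) and Col26a1 (58.6 ± 12.3) followed, also within their spread of each other, and Col4a5 came next at 14.9 ± 0.304. In Six2-low Col4a1 was at 297 ± 17.4 and Col4a2 at 170 ± 9.05 CPM per kilobase, then Col1a1 (134 ± 26.5), Col18a1 (132 ± 9.45), Col3a1 (113 ± 6.92) and Col1a2 (80.7 ± 7.41). Col2a1 was 21st there, at 5.60 ± 1.51. The order depends on the length used. Per kilobase of coding sequence Col26a1 was first in Six2-high, at 363 CPM per kilobase against 149.99 for Col4a1, and Col3a1 was second in Six2-low.

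Each fraction spent its collagen counts differently. Col2a1 made up 15.1%, 18.1% and 15.7% of all collagen CPM in Six2-high and 0.74%, 0.44% and 0.43% in Six2-low. Col26a1 held 10.1%, 13.1% and 15.8% against 1.12%, 1.06% and 1.18%. Type VI genes went the other way, with 1.45%, 0.54% and 0.66% against 7.62%, 7.69% and 7.69%. The share of Col4a1 was close in the fractions, from 19.2% to 21.5% in Six2-high and from 22.3% to 23.2% in Six2-low.

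**Figure D4:**
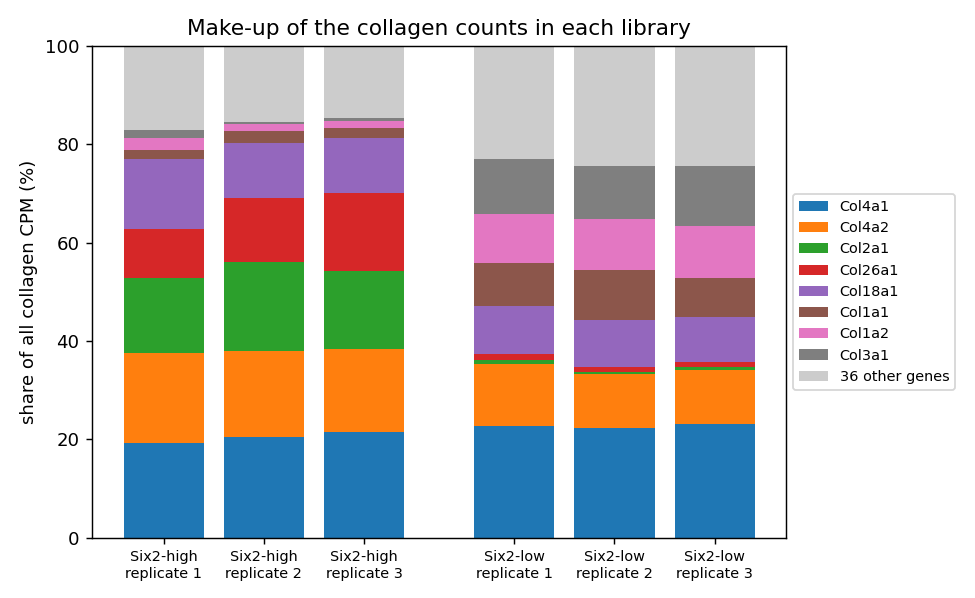
Make-up of the collagen CPM of each library as stacked shares in percent, for 8 genes and the sum of the 36 others. Col2a1 and Col26a1 fill a band in Six2-high that is held by Col1a1, Col1a2 and Col3a1 in Six2-low.

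Among the 34 called collagen genes, the direction was the same in 3 of 3 preparations for 34, which follows largely from the call. In 22 of the 28 lower genes the log2 difference was smallest in size in preparation 1, that of the first date tag. The median over the tested collagen genes was -1.92, -2.36 and -2.46 in preparations 1 to 3, where that of all genes was from 0.0032 to 0.068. The share among all lower genes was not counted, and the all-gene medians mix rises and falls. In the same order, cap mesenchyme markers had medians of 3.724, 5.35 and 5.115. Podocyte, tubule, ureteric bud and smooth muscle lists were also smallest in size in preparation 1. Endothelial, immune and glial lists were largest there, and stroma and cartilage showed neither clearly. The smaller difference was thus not confined to collagen genes. Of the higher genes, Col2a1 was at 3.02, 3.93 and 3.75, Col9a1 at 3.97, 4.405 and 4.19 and Col11a2 at 3.25, 3.14 and 2.94. A preparation has 1 library per fraction, so these values have no test.

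Enzymes of collagen synthesis and collagen receptors were counted in the same way. Of 41 tested genes in a list of 42, 19 were lower and 5 higher, with a median log2 fold change of -0.39, where 28.7% and 21.4% of all genes were lower and higher and their median was 0.05. Serpinh1, which encodes the collagen chaperone HSP47, was at 807, 977 and 1079 CPM in Six2-high and 807, 905 and 974 CPM in Six2-low and was not called, with overlapping ranges. P4hb, the shared subunit of prolyl 4-hydroxylase, was not called either (log2 -0.25, SE 0.12). Its ranges did not overlap, with every Six2-high library below every Six2-low library in CPM. These 2 genes were chosen after their values were seen.

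Hydroxylation and glycosylation genes were lower in 4 and higher in 2 of 14, a share of lower genes close to the 28.7% of all genes. Leprel1, now P3h2, a prolyl 3-hydroxylase known to act on type IV collagen, fell from 70.6 ± 10.4 to 2.63 ± 0.33 CPM (log2 -4.75, SE 0.18, adjusted p = 5.8e-07). P4ha3, a catalytic subunit of prolyl 4-hydroxylase, rose from 5.23 ± 0.96 to 55.6 ± 9.02 CPM (log2 3.41, SE 0.19, adjusted p = 2.7e-06). Leprel4, now P3h4, a partner of lysyl hydroxylase, rose by 0.94 (SE 0.10). In the folding list 2 were lower and 1 higher of 7, where 28.7% and 21.4% of all genes were lower and higher. Creb3l1, a transcription factor for type I collagen in bone, was at -4.04 (SE 0.15). Fkbp10, a procollagen chaperone, was at 268 ± 6.54 against 130 ± 11.4 CPM (log2 1.04, SE 0.11). Neither Leprel4 nor Fkbp10 passed against a 2-fold change.

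Of 7 tested propeptide cleavage genes, which trim procollagen outside the cell, 5 were lower and 0 higher, against the same 28.7% and 21.4% of all genes. Pcolce, the enhancer of C-propeptide removal, was at 22.9 ± 1.47 against 87.3 ± 1.74 CPM (log2 -1.93, SE 0.11), and Adamts2, the N-propeptide protease, was at -3.05 (SE 0.27). Cross-linking genes were lower in 5 of 6, one of them Pxdn, peroxidasin, which cross-links type IV collagen. Lox, lysyl oxidase, fell from 75.8 ± 20.5 to 4.71 ± 0.48 CPM (log2 -4.00, SE 0.23), and Loxl1, its relative, by 1.74 (SE 0.13). Receptors went both ways, 3 lower and 2 higher of 7, where 28.7% and 21.4% of all genes were lower and higher. Itga1 and Ddr2, receptors for type IV and for fibrillar collagen, were at -4.73 (SE 0.26) and -4.81 (SE 0.28). Itga11, an integrin subunit for fibrillar collagen, was higher, at 25.5 ± 7.61 against 7.77 ± 0.82 CPM (log2 1.71, SE 0.23, adjusted p = 0.00037). Ddr1, the receptor tyrosine kinase of epithelia, was higher by 0.45 (SE 0.11, adjusted p = 0.010), but not without Six2-low replicate 3 (adjusted p = 0.051) or both libraries of preparation 3 (0.076).

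**Figure D5:**
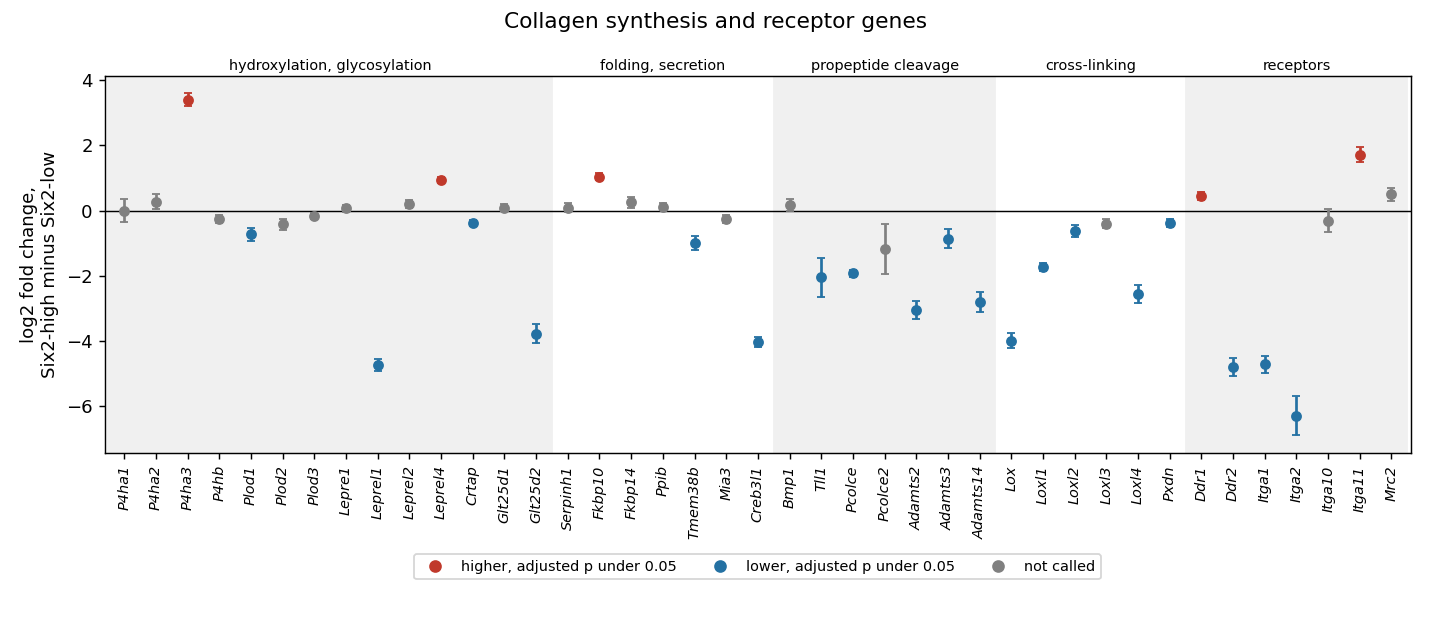
Log2 fold change, Six2-high minus Six2-low, of 41 tested genes of collagen synthesis and collagen receptors, with the standard error as bars. P4ha3, Leprel4, Fkbp10, Ddr1 and Itga11 are called higher, in red, and the lowest points are Itga2, Ddr2, Leprel1 and Itga1.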

How the data were processed

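The deposited table holds raw read counts per gene symbol for 6 libraries, 3 per fraction, and 23420 genes, of which 3662 had no counts. Build mm10 is listed in the submitters' processing notes, as are HTSeq 0.6.1p1, TopHat2 2.1.0, SAMtools, TopHat and DESeq2, with no role or order. How reads were assigned (annotation, strand) is not stated there. The authors' normalized table was not used.

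The deposited counts went into edgeR 4.0.16 (R 4.3.3) with filterByExpr, TMM scaling and the quasi-likelihood F test, two-sided, without a block, with Benjamini-Hochberg adjustment over all 15347 genes tested and a threshold of 0.05. SE is the size of the log2 fold change divided by the square root of F. Preparation differences used 0.5 added counts. Lengths and gene coordinates are from GENCODE M21 on mm10. Exons of a collagen gene shared with other genes in the table covered at most 6.07% of its length (Col9a3 with Tcfl5), and reads there cannot be assigned without strand. The test was tried on simulated data.

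Members and lists were chosen with earlier results of these data known. Of collagen genes, those with at least 10 CPM in either fraction are given in every library. Of each synthesis or receptor list, the 2 smallest p and called genes opposite to most of the list are named. The labels give the shared preparations, and deviations from the fraction means correlated at 0.34, 0.36 and 0.27 across genes within preparations 1 to 3, so the preparation pairs the libraries. The main fit leaves this pairing out, and the fit with a replicate block, which called more genes over all genes, takes it in. Replicates of a fraction were further apart than counting noise (chi-square over its degrees of freedom, 16.9 to 212). The labels speak of separate experiments but not of separate litters for replicates 2 and 3, so p-values measure the spread between these libraries, which may be technical. Alternatives were RLE scaling, DESeq2 1.42.0, no filter, a replicate block, leaving out each library or preparation, summing same-date libraries, removing Rn45s and Lars2, a 2-fold threshold and coding length.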

Additional observations from a re-analysis of the deposited data

Results flagged for a closer look

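For 4 collagen genes, none of them called between the fractions, the sign of the log2 difference, Six2-high minus Six2-low, was opposite between dates or kits. Col11a1 was at 0.16 at the first date and at -0.17 and -0.38 at the later date. Col20a1 was at -0.35 at the first date and at 0.52 and 0.23 at the later date. Col4a5 was at 0.016 at the first date and at -0.22 and -0.27 at the later date. Col22a1 was at 0.83 with the Norgen kit and at -0.34 and -0.85 with the TRI kit. The first date and the Norgen kit each have 1 preparation, and these differences were not tested.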

How the results depend on the processing

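The collagen genes called higher numbered 6 under each of 16 alternative fits except the replicate block, and the lower ones numbered from 24 (against a 2-fold change) to 29. Leaving out 1 library at a time gave 27 to 29 lower. With the preparation as a replicate block 7 were higher and 29 lower, Col7a1 and Col27a1 being added, and the type VII, XXVI and XXVIII group then had 2 higher. The same group had 1 lower, Col28a1, in DESeq2 and 1 without the filter. Against a 2-fold change 1 multiplexin was lower, and the synthesis and receptor list had 2 higher and 12 lower, also 12 lower with same-date libraries summed. Over all genes 2160 to 3183 were higher with 1 library left out, 2086 without preparation 2, 1329 without preparation 3, 1995 with same-date libraries summed, and 546 higher and 2662 lower against a 2-fold change. The replicate block gave 4860 higher and 5059 lower, so the share called over all genes is larger there too. Reversed in sign were only uncalled genes: Col20a1 at -0.35 without Six2-high replicate 2 and -0.0070 without Six2-low replicate 1 (range -0.35 to 0.63 with 1 library left out), Col6a6 at 0.21 without Six2-low replicate 1 (range -0.65 to 0.21), and Col22a1 at 0.12 without both libraries of preparation 3. Of 656 collagen gene results over the alternatives 635 kept direction and side of the threshold, 13 lost the call, 4 gained it and 4 changed sign. The block changed no call of a named collagen gene besides Col7a1 and Col27a1. The cause of these shifts was not tested. Col10a1, Col19a1 and Col28a1 fell below the count filter. Without the filter and in DESeq2 they were tested, and of the 3 Col28a1 was called.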
